A study of Mus musculus with 16 samples.

Results

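Adrenal glands of Dicer knockout (KO) mouse embryos were compared between embryonic days E15.5 and E16.5, 4 samples against 4. The values were threshold cycles (Ct) of a TaqMan OpenArray real-time PCR panel, and the miRNAs described were all assays detected in at least 3 samples of either KO age. This rule took 312 of 741 miRNA assay names. The embryos were C57BL/6, and came from matings of Sf1-Cre/Dicer lox/lox, Sf1-Cre/Dicer +/lox and Dicer lox/lox mice. The KO embryos were Sf1-Cre/Dicer lox/lox at both ages, and the controls (WT) were littermates without Cre. Per the series' text each sample was a pool of adrenals of 1 litter, with 4 litters per age, and how many glands made up a pool is not stated in what was used here. The driver acts in cells that express Sf1, so the chromaffin, vascular and blood cells of these glands keep Dicer, and a pool mixes cells with and without the enzyme. No messenger RNA was measured, so neither the loss of Dicer nor a defining transcript of the adrenal cortex could be checked.

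Dicer is the RNase that cuts hairpin precursors into mature miRNAs, which guide Argonaute proteins to messenger RNAs mainly through their seed, bases 2 to 8. A cell that loses Dicer stops making new miRNAs, and those already bound to Argonaute disappear only as they are turned over or diluted by division. Sf1 (Nr5a1) is the transcription factor that specifies steroid-producing cells, and the fetal adrenal cortex expresses it well before these ages. Comparing knockout glands 1 day apart asks how the pool of miRNAs that remains goes on changing.

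The mature sequences below belong to the miRNAs whose values are described most closely, with the seed in capitals. Sequences are from RefSeq, with positions on GRCm38.p6. The first group is the miR-29 family, whose 3 members share a seed and are compared with each other.
miR-29a: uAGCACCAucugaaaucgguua
miR-29b: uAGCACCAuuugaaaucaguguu
miR-29c: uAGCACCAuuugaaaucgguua
The second group is made of miRNAs of white blood cells, among which miR-146a and miR-146b share a seed.
miR-223: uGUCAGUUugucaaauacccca
miR-146a: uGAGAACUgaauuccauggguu
miR-146b: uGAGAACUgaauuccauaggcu
miR-142-3p: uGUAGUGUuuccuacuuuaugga
miR-155: uUAAUGCUaauugugauaggggu
The third group holds other miRNAs that were higher or lower at E16.5 at a small unadjusted p, and here miR-196a and miR-196b share a seed.
miR-22: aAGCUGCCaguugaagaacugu
miR-204: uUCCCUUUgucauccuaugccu
miR-369-5p: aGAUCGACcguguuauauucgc
miR-27b#: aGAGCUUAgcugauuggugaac
miR-196a: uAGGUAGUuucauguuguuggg
miR-196b: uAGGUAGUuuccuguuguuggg
The last sequence is that of miR-451, whose precursor is cut by Argonaute2 and not by Dicer.
miR-451: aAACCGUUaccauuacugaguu
In the genome miR-29a lies at chr6:31062673-31062694 (minus strand) in Mir29a, beside a copy of miR-29b at chr6:31063025-31063047 (minus strand) in Mir29b-1. The gene Mir29c at chr1:195037600-195037621 (plus strand) lies beside the other copy of miR-29b, at chr1:195037091-195037113 (plus strand) in Mir29b-2. miR-223 maps to chrX:96242884-96242905 (plus strand), miR-146a to chr11:43374435-43374456 (minus strand) and miR-146b to chr19:46342790-46342811 (plus strand). The position of miR-22 is chr11:75463772-75463793 (plus strand).

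Levels are the mean Ct of 5 small RNA controls (U6, snoRNA135, snoRNA202, U87 and Y1, none of them made by Dicer) minus the Ct of the assay. This is a log2 scale, on which a difference of 1 stands for about 2 times the template, and levels of different assays are not compared. Wells with no Ct, or with one above 28, were taken as undetected and given a Ct of 28. An assay undetected in all 8 samples therefore still has levels, -11.36, -10.68, -11.46 and -10.29 at E15.5 and -11.16, -11.70, -11.25 and -11.23 at E16.5 (replicates 1 to 4), and these limits differ by -0.39 between the ages because the control Ct does. The control mean Ct was 17.1 ± 0.56 at E15.5 and 16.7 ± 0.25 at E16.5 (SD over 4 samples each; p = 0.286 in a two-sided exact permutation test). Between 267 and 352 miRNA assays were detected per KO sample. Y1, set against the other 4 controls, was lower in all 4 samples at E16.5, by -0.26 (exact permutation p = 0.0286, the smallest that 4 against 4 allow, and 0.157 adjusted over 11 sample measures), while the other controls differed by -0.011 to 0.16. The table holds 1 no-template column after the columns of each age. The sources used here do not say whether the ages were run apart, and if they were, age and run cannot be told apart.

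Within the E15.5 group 2 samples stood apart from the others. The median level over the 312 members was -5.53 and -5.14 in replicates 1 and 2 at E15.5, and -6.59 and -6.61 in replicates 3 and 4. At E16.5 it was -5.95, -5.61, -5.31 and -5.99 in replicates 1 to 4. All 4 samples at E16.5 thus lay within the range of the E15.5 samples. Over the 239 members detected in all 8 samples, the median SD between samples was 0.76 at E15.5 and 0.38 at E16.5, and 215 of these members had the larger SD at E15.5. The same medians of SDs in WT were 0.45 and 0.54. Values without replicates 3 and 4 at E15.5 are therefore given beside results whose direction or size turns on them. Replicate 1, 1 of the 2 E15.5 samples then left, carries an R in its title that the sources used here do not explain.

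**Figure D1:**
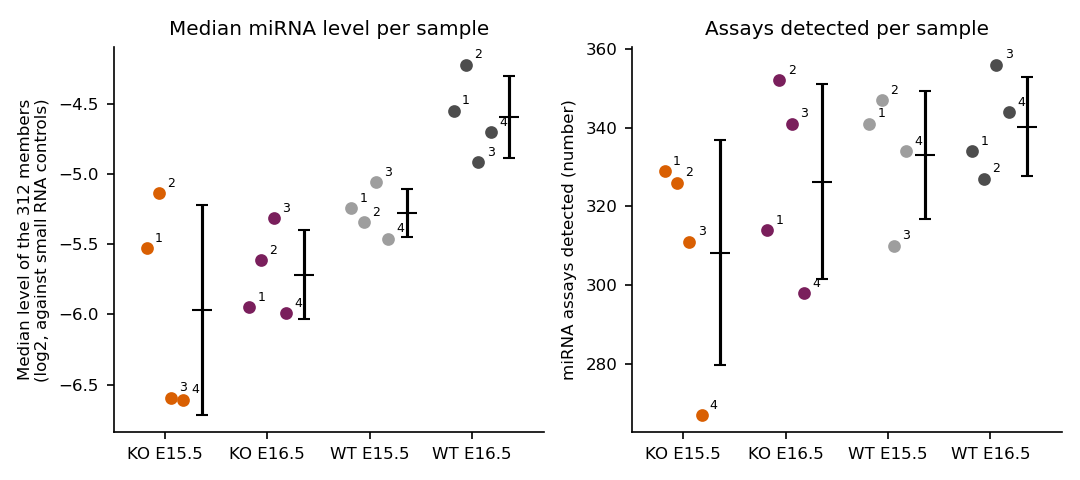
Median level of the 312 members (left, log2 against the small RNA controls) and number of miRNA assays detected (right) in each sample, with the replicate number beside each point. Bars give the mean and SD of 4 samples. Replicates 3 and 4 of KO at E15.5 have medians of -6.59 and -6.61, below all other samples.

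For the miRNA pool as a whole no shift beyond the spread of the samples was found. The mean of the sample medians was -5.97 ± 0.75 at E15.5 and -5.72 ± 0.32 at E16.5 (SD, n = 4 each), a difference of 0.25 or 1.19-fold (two-sided exact permutation p = 0.514, adjusted 0.663). Without replicates 3 and 4 at E15.5 the difference was -0.38 (exact permutation p = 0.267), so its direction rests on those samples. In WT the same assays had medians of -5.28 ± 0.17 and -4.59 ± 0.29 (SD, n = 4 each), with each E16.5 sample above each E15.5 sample (difference 0.68, exact permutation p = 0.0286, adjusted 0.157). The number of assays detected in KO was 308 ± 28.6 at E15.5 and 326 ± 24.7 at E16.5 (SD, n = 4 each, exact permutation p = 0.429).

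No single miRNA passed the test either. Of the 341 assays tested, 0% were called in KO between the ages (limma, adjusted p under 0.05), and 0 of the 312 members. The smallest adjusted p was 0.252. At an unadjusted p under 0.05, 19 members were higher at E16.5 and 3 lower, where 5.57% and 0.88% of all tested assays were. The changes of the members had a median of 0.28 (1.22-fold), with the middle 50% between 0.0088 and 0.55 and a whole range of -2.75 to 3.44, and 235 of the 312 were above 0. Their median standard error was 0.45, so a change of the median size is within the error. Standard errors and intervals use 1 spread per assay over all 16 samples, WT included. The KO samples at E15.5 had the largest median SD, 0.76 against 0.38 to 0.54 in the other groups. For assays spread at E15.5 the KO intervals can therefore be too narrow. Fitted on the KO samples alone, 11 members were higher and 2 lower at an unadjusted p under 0.05. Without replicates 3 and 4 at E15.5 the median change was -0.30 and 76 members were above 0, with 5 higher and 11 lower at an unadjusted p under 0.05. Against the miRNA median of each sample, in place of the controls, the median change was 0.0040, with 19 members higher and 13 lower, and with no reference it was 0.67, with 48 higher and 0 lower. Members detected in all 8 samples had a median change of 0.31, against 0.097 for the 73 others. The 37 minor arms, marked # in the panel's names, had a median of 0.30, against 0.28 for the other 275.

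In 8 members every E16.5 sample lay above every E15.5 sample, or 2.35% of the tested assays, and in none of the tested assays (0%) did every E16.5 sample lie below. The 8 were miR-2146, miR-2138, miR-2182, miR-2134, miR-2135, miR-712, miR-22 and let-7c. All but let-7c, 7 of the 8, are in the second set of sub-arrays of the panel, which holds 99 of the 312 members. In the control wells the Ct of the second set minus that of the first was 0.41 ± 0.11 at E15.5 and 0.63 ± 0.12 at E16.5 (SD over 4 samples each, exact permutation p = 0.0857), and the part of this gap in the 7 was not tested beyond the change of reference given below. Of these miR-712 is known to come from a spacer of the ribosomal RNA precursor. For miR-2134, miR-2135, miR-2138, miR-2146 and miR-2182 no mature sequence was matched. Whether they are miRNAs made by Dicer was not tested. miR-2146 had the smallest p, with levels of -1.25, -0.72, -1.28 and -1.03 at E15.5 and 0.38, 0.11, 0.26 and 0.58 at E16.5 (replicates 1 to 4). All E16.5 samples were above 0 and all E15.5 samples below, a difference of 1.41 or 2.65-fold (SE 0.36, 95% interval 0.65 to 2.16, limma adjusted p = 0.252), and 1.32 without replicates 3 and 4. miR-2138 was at 0.42, 1.12, -0.099 and -0.79 at E15.5 and 2.26, 2.23, 2.09 and 2.46 at E16.5. The lowest E16.5 sample lay above the highest E15.5 sample although the E15.5 samples were spread, and the difference was 2.10 or 4.27-fold (SE 0.55, 95% interval 0.93 to 3.26, limma adjusted p = 0.252). For miR-2182 the levels were -4.46, -4.51, -4.90 and -4.42 at E15.5 and -3.05, -3.20, -2.93 and -3.05 at E16.5, close together within each age, with a difference of 1.52 (95% interval 0.45 to 2.59, limma adjusted p = 0.439). Besides miR-22, the others of this set differed by 1.11 (miR-712), 0.91 (miR-2135) and 0.65 (miR-2134), with limma adjusted p of 0.671 or more. Without replicates 3 and 4 at E15.5 these 6 differences, miR-22 left aside, ran from 0.55 to 1.49, all above 0. All 6 were higher at E16.5 in WT as well, by 1.40 for miR-2146, 2.09 for miR-2138 and 0.90 for miR-2182. Against WT of the same age they were not low in KO: at E15.5 the KO minus WT differences ran from 0.34 to 0.83. With only the controls of the second set as the reference, miR-2146 and miR-2138 passed in KO (limma adjusted p = 0.00754 and 0.0227).

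Of the miR-29 family, whose members act on collagens and other matrix transcripts, none passed the test, with differences of 1.89 for miR-29a, 1.73 for miR-29c and -0.32 for miR-29b. The differences were not tested against each other. The level of miR-29a was -7.91, -7.48, -9.48 and -10.29 in replicates 1 to 4 at E15.5, the last being the detection limit, and -7.85, -6.32, -6.23 and -7.20 at E16.5. It was lowest in replicates 3 and 4 at E15.5, and the groups overlapped through replicate 1 at E16.5. The difference was 1.89 or 3.71-fold (SE 0.54, 95% interval 0.74 to 3.04, limma adjusted p = 0.335), and 0.80 without replicates 3 and 4 at E15.5. miR-29c was at -7.20, -6.02, -9.93 and -10.29 at E15.5 and -7.05, -5.77, -5.99 and -7.73 at E16.5, with replicate 4 at E15.5 again at the limit. Its difference of 1.73 (95% interval 0.15 to 3.30, limma adjusted p = 0.671) came to -0.023 without those replicates, so it rests on them. miR-29b stayed near the limit at both ages, detected in 3 samples at E15.5 and 2 at E16.5, with a difference of -0.32 (95% interval -1.51 to 0.86). In WT all 3 were higher at E16.5, by 1.82 for miR-29a, 1.79 for miR-29b and 1.76 for miR-29c, each at an unadjusted p under 0.05.

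Some other single miRNAs were among the 15 with the smallest p. miR-22, which is cut from the exon of a non-coding host transcript, was undetected in replicates 2 and 4 at E15.5, with levels of -7.24, -10.68, -8.72 and -10.29 (limits included), and was at -6.79, -5.83, -5.84 and -6.96 at E16.5. Each E16.5 sample was above each E15.5 sample. With undetected wells at the limit the difference was 2.88 (SE 0.95, 95% interval 0.88 to 4.87, limma adjusted p = 0.439), and 2.61 without replicates 3 and 4. miR-204, encoded in an intron of Trpm3, was at -4.25, -4.14, -5.66 and -5.83 at E15.5 and -4.15, -3.92, -3.65 and -4.13 at E16.5. Only replicates 3 and 4 at E15.5 were clearly low, and the difference of 1.01 (95% interval 0.17 to 1.85, limma adjusted p = 0.671) became 0.24 without them. The same held for miR-135b, known to act on the Wnt regulator Apc, whose difference was 1.27 with all samples and 0.14 without those replicates. For miR-1839-3p the values were 1.51 and 0.57, for miR-369-5p of the Dlk1-Dio3 cluster 1.17 and 0.26, and for miR-365 1.29 and 0.069. The largest difference, 3.44 for miR-141#, cannot be read as a level. That assay had a Ct of 22.0 and 22.7 in the no-template controls, where no RNA was added, and of 22.4 to 23.6 in the samples in which it was detected.

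**Figure D2:**
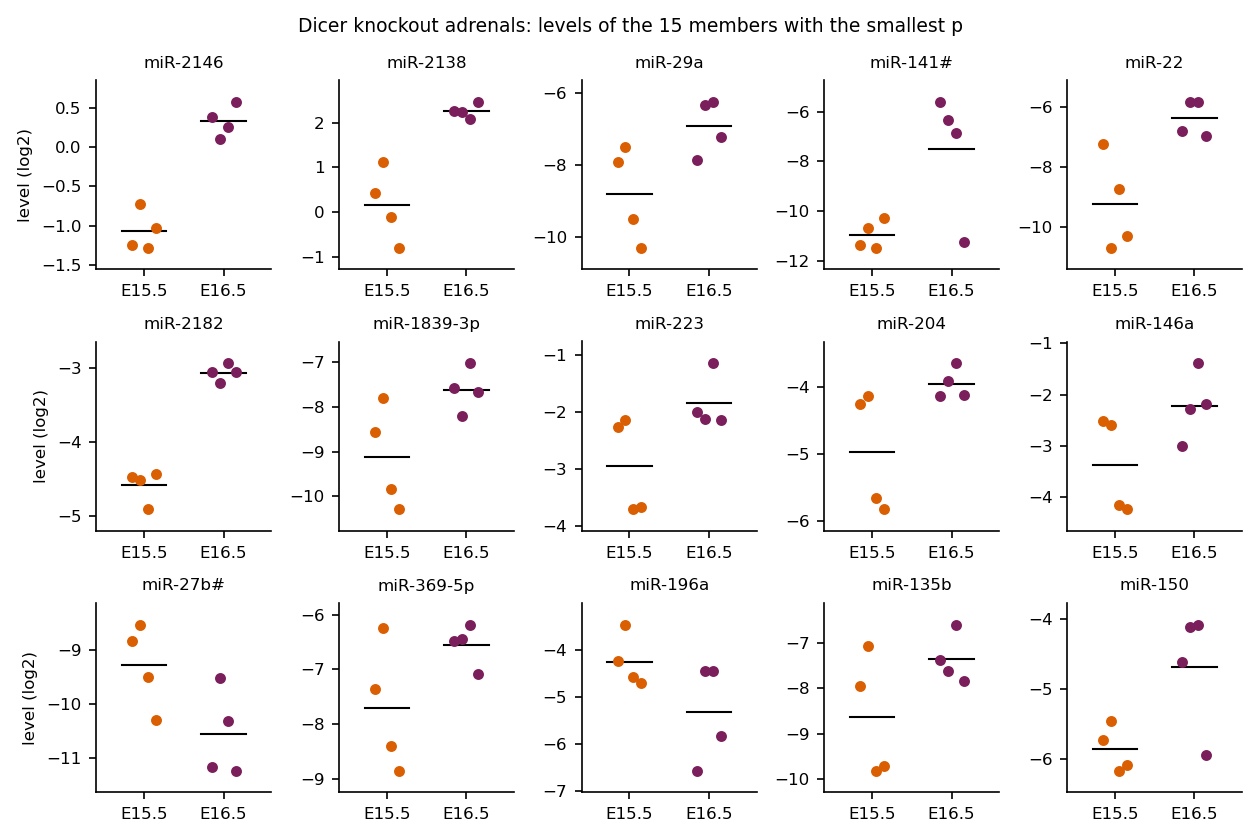
Levels (log2 against the small RNA controls) of the 15 members with the smallest p in KO, at E15.5 (orange) and E16.5 (purple), 1 point per sample in the order of replicates 1 to 4, with the mean as a line and undetected samples at the limit. Scales differ between panels. The points of miR-2146, miR-2138, miR-2182 and miR-22 do not overlap between ages, and in miR-223, miR-204 and miR-146a the low points at E15.5 are replicates 3 and 4.

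None of the 7 assays for miRNAs of white blood cells passed the test, where miR-146b and its rat assay are counted separately. All 7 had differences above 0, as did 235 of the 312 members, with a median of 0.91 where that of all members was 0.28. Of the 7, 4 were higher at an unadjusted p under 0.05, where 5.57% of tested assays were. miR-223, the miRNA of neutrophils and monocytes, was at -2.27, -2.14, -3.71 and -3.67 at E15.5 and -2.002, -2.13, -1.16 and -2.15 at E16.5 (replicates 1 to 4, mean of 2 wells). Replicate 3 at E16.5 was the highest of the 8 and replicates 3 and 4 at E15.5 the lowest, and the difference was 1.09 or 2.13-fold (SE 0.42, 95% interval 0.20 to 1.97, limma adjusted p = 0.671). Its 2 wells, 1 in each set of sub-arrays, gave 0.99 and 1.19. miR-146a, which is induced by NF-kB and dampens Toll-like receptor signalling, was at -2.53, -2.60, -4.16 and -4.24 at E15.5 and -3.01, -2.29, -1.39 and -2.19 at E16.5. Its difference of 1.16 (95% interval 0.17 to 2.15) came with 0.91 for miR-146b, which shares its seed, and with 0.52 for the rat assay of miR-146b. miR-150, a miRNA of mature lymphocytes, was at -5.73, -5.46, -6.17 and -6.09 at E15.5 and -4.61, -4.11, -4.08 and -5.95 at E16.5. In that case replicate 4 at E16.5 stayed within the E15.5 range while the other 3 lay above it, with a difference of 1.18 (95% interval 0.12 to 2.23, limma adjusted p = 0.671). miR-142-3p, found across blood cell lineages, differed by 0.48 (95% interval -0.50 to 1.47) and miR-155, of activated lymphocytes and macrophages, by 0.12 (95% interval -1.09 to 1.34). Without replicates 3 and 4 at E15.5 the differences were 0.91 for miR-150, 0.35 for miR-223, 0.34 for miR-146a, 0.20 for miR-146b, -0.35 for the rat assay, -0.40 for miR-142-3p and -0.69 for miR-155. The median of the list was then 0.20, with 4 of 7 above 0, while that of all members was -0.30. In WT the same list had a median of 0.89, with all 7 above 0 (range 0.30 to 1.29). In bulk samples fewer cells of a type and less RNA per cell cannot be told apart.

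Of the 312 members 77 had a difference below 0, and 3 of these, miR-196a, miR-27b# and miR-292-3p, had an unadjusted p under 0.05. miR-196a, which lies among the Hox genes and acts on Hoxb8, was at -4.24, -3.47, -4.58 and -4.72 at E15.5 and -6.57, -4.44, -4.46 and -5.84 at E16.5. Replicates 1 and 4 at E16.5 were the lowest of the 8, while the other 2 lay within the E15.5 range, a difference of -1.08 or 2.11-fold lower (SE 0.45, 95% interval -2.03 to -0.13, limma adjusted p = 0.671). It was -1.48 without replicates 3 and 4 at E15.5. These were the lowest E15.5 samples for miR-196a too, so leaving them out could only make the difference larger in size. miR-196b, with the same seed, had a difference of -0.84 (95% interval -2.60 to 0.91), with replicate 4 undetected at both ages. Across the 6 Hox cluster members the median was -0.23 and 4 were below 0. Without replicates 3 and 4 at E15.5 it was -0.40 with all 6 below 0, where all 312 members had a median of -0.30 and 76 above 0. In WT the median of the 6 was 0.37. miR-27b#, the minor arm of miR-27b, went from 3 detected samples to 2, with levels of -8.82, -8.53, -9.49 and -10.29 at E15.5 and -11.16, -9.52, -10.31 and -11.23 at E16.5, limits included. Its difference was -1.27 (95% interval -2.36 to -0.19, limma adjusted p = 0.671), while the main arm miR-27b had 0.35. miR-292-3p, of a cluster known from embryonic stem cells, had a difference of -1.24 (limma adjusted p = 0.691) as the mean of 2 wells. One of these was undetected in all KO samples, and the other gave -2.08, from -8.40 ± 0.76 to -10.5 ± 1.22 (SD, n = 4 each).

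miRNAs of muscle differed widely between samples of 1 age. miR-206, a miRNA of skeletal muscle, was at -1.42, -2.37, -3.73 and -3.43 at E15.5 and -6.55, -3.32, -2.95 and -5.00 at E16.5. It was lowest in replicates 1 and 4 at E16.5, the same samples in which miR-196a was lowest, with a difference of -1.72 (95% interval -3.90 to 0.46, limma adjusted p = 0.691). miR-133a, miR-133b, miR-1 and the rat assay of miR-1 had -0.50, -1.004, -0.74 and -0.51, each with an interval that includes 0. In all 4 replicates 1 and 4 were the lowest of the E16.5 samples, for miR-1 because both were undetected and set to the limit. Except for miR-1, these were chosen after their values were seen. In WT they were higher at E16.5, by 0.73 for miR-206 to 3.54 for miR-1, and there 1 sample was far above the rest. In WT replicate 2 at E16.5 miR-206 stood at 1.50, where the other 3 stood at -4.29 to -3.04, and miR-133a at 1.86 where the others stood at -4.24 to -2.53. How far muscle tissue in single pools took part in these values was not tested.

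**Figure D3:**
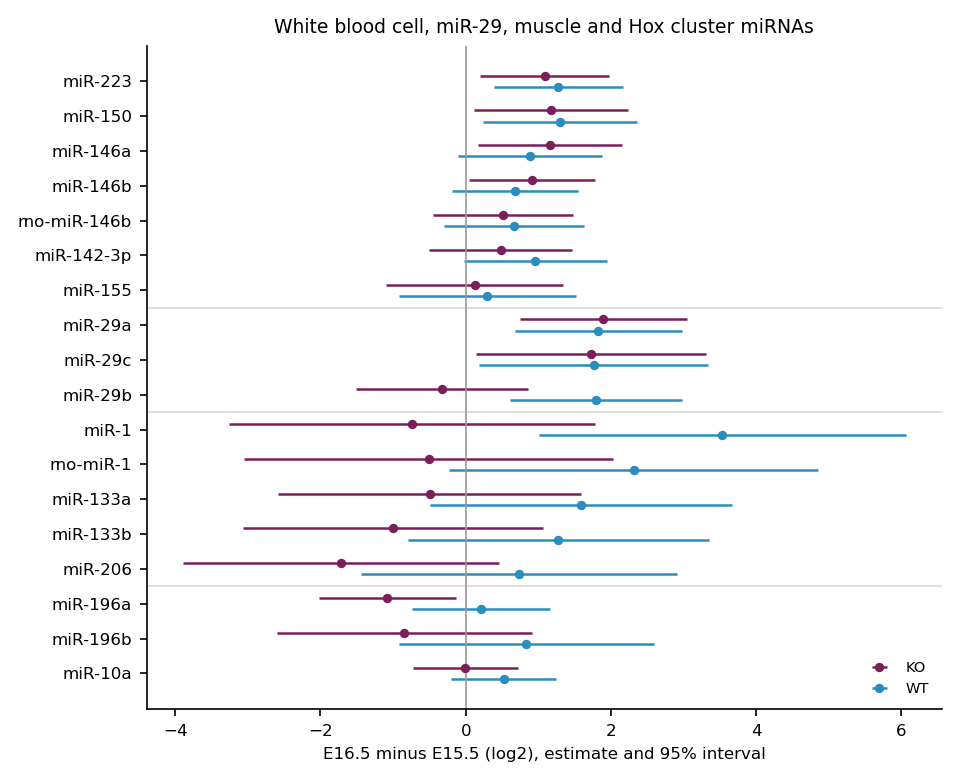
Difference between E16.5 and E15.5 (log2) with 95% interval from the limma fit, in KO (purple) and WT (blue), for white blood cell miRNAs, the miR-29 family, muscle miRNAs and Hox cluster miRNAs, separated by lines. The muscle miRNAs have the widest intervals.

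Among the broadly expressed families the values were small and mostly above 0, and this direction rests on replicates 3 and 4 at E15.5. Without them the medians were -0.027 for let-7, -0.075 for the miR-30 family and -0.33 for the family of miR-15 and miR-16. With all samples all 8 let-7 members were above 0, with a median of 0.58 (range 0.022 to 0.65), and 0 of them had an unadjusted p under 0.05. let-7c, a miRNA of differentiated cells like the rest of the family, was at -0.14, -0.063, -0.97 and -0.84 at E15.5 and -0.0064, 0.087, 0.33 and 0.12 at E16.5. Its E16.5 samples lay above all E15.5 samples by a small margin, and the difference was 0.63 (95% interval -0.14 to 1.41), or 0.23 without replicates 3 and 4 at E15.5. The miR-30 family had 7 of 8 above 0 and a median of 0.52. In the family that holds miR-15, miR-16 and miR-503, known as brakes of the cell cycle, 11 of 12 were above 0 with a median of 0.32. The miR-23, miR-27 and miR-24 clusters had a median of 0.35 over 7 members, and -0.28 without replicates 3 and 4 at E15.5. The pair miR-181a and miR-181c had 0.49 and 0.43, or 0.061 and -0.50 without them. The group of miR-148, miR-152, miR-130 and miR-301b had a median of 0.15 over 7, and of -0.52 with 0 above 0 without those replicates. The panel's miR-301 assay is a member but was not matched to this list, and had 0.25. Of the epithelial miR-200 family, miR-200b had 0.57, miR-200c 1.01 and miR-429 0.34, beside the uninterpretable miR-141#. Without those replicates miR-200b had -0.16 and miR-200c 1.31.

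The cluster of miR-17 to miR-92a and its paralogues, which are known to promote proliferation, had a median of -0.011 over 15 members, 6 of them above 0, and of -0.55 without replicates 3 and 4 at E15.5. The panel's miR-92 assay is a member but was not matched to this list, and had -0.11. miR-18a was at -4.69, -4.19, -6.40 and -5.73 at E15.5 and -6.49, -5.87, -5.37 and -6.40 at E16.5. Replicates 1 and 4 were the lowest of the E16.5 samples here too, as they were for the median of all members. The difference of miR-18a was -0.78 (95% interval -1.76 to 0.20), and -1.59 without replicates 3 and 4 at E15.5. The -2.75 of miR-20a came from 1 missing Ct. Its levels were 0.18, 0.71, -0.52 and -0.58 at E15.5 and -0.36, -0.026, 0.40 and -11.23 at E16.5, the last being the limit, and without replicate 4 at E16.5 the difference was 0.058. The 54 members of the imprinted Dlk1-Dio3 cluster had a median of 0.27, close to that of all members, with 44 above 0, and of -0.36 with 11 above 0 without replicates 3 and 4 at E15.5. Its smallest p after miR-369-5p belonged to miR-539 (0.83) and to the rat assay of miR-381 (0.70). The 4 members of the Sfmbt2 intron cluster had a median of 0.12, and of -0.44 without those replicates.

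**Figure D4:**
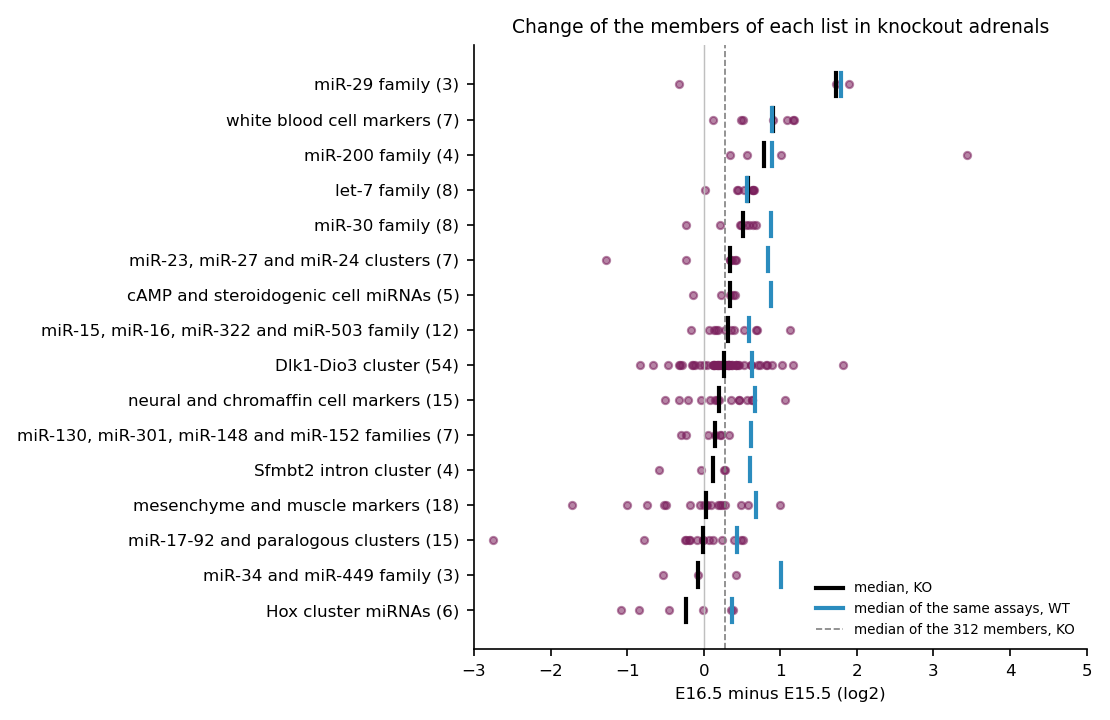
Difference between E16.5 and E15.5 (log2) of each member of the lists with 3 or more members in KO (points, number of members in brackets), with the list's median in KO (black) and in WT (blue). The dashed line is the median of all 312 members in KO. The miR-29 family and white blood cell miRNAs have the highest medians in KO, 1.73 and 0.91.

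miRNAs that were known from earlier results of these data to be low in KO had no difference over the day that passed the test. The KO minus WT difference at E15.5 was -2.95 for miR-34c, -1.93 for miR-21 and -1.82 for miR-10a. For miR-98 and miR-202 the KO levels include undetected samples set to the limit, so their differences of -6.72 and -2.71 are bounds and the true ones may be larger in size. miR-98, whose seed is that of let-7, was undetected in all 8 KO samples, so a further decrease could not have been seen. miR-202, of steroidogenic cells, was detected in 2 samples at E15.5 and in 0 at E16.5, and neither it nor miR-98 is among the 312. miR-34c, made with miR-34b from a locus that p53 activates, was at -6.08, -5.77, -7.90 and -7.05 at E15.5 and -7.82, -7.36, -6.48 and -7.26 at E16.5. The groups overlapped, with a difference of -0.53 (95% interval -1.45 to 0.40), or -1.30 without replicates 3 and 4 at E15.5. miR-34b-3p had 0.42 (95% interval -0.33 to 1.17), or -0.086 without those replicates, and miR-34a, from another locus, had -0.077 (95% interval -0.96 to 0.81). miR-21, a miRNA of growing and stimulated cells, was at -3.37, -2.93, -4.49 and -4.59 at E15.5 and -4.06, -3.56, -2.69 and -3.42 at E16.5, a difference of 0.41 (95% interval -0.49 to 1.31) that turned to -0.29 without replicates 3 and 4 at E15.5. miR-10a had -0.0034 (95% interval -0.72 to 0.72) and miR-690, which was higher in KO than in WT, had 0.55 (95% interval -0.41 to 1.51). The 5 steroidogenic cell miRNAs that were members had a median of 0.34 (range -0.14 to 0.41), with 0.34 for miR-132 and 0.38 for miR-320. This direction turns without replicates 3 and 4 at E15.5, where the median was -0.16 with 0 of 5 above 0, and miR-132 had -0.094 and miR-320 -0.058.

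miRNAs taken as markers of cells that keep Dicer were measured in the same samples, and whether other cells of the gland also make them was not tested. With all samples their lists had medians on both sides of the 0.28 of all members. The KO minus WT medians of these 5 lists ran from -0.57 (erythroid) to 0.70 (endothelial) at E15.5. At E16.5 they ran from -0.86 (erythroid) to -0.31 (endothelial). miR-451, an erythroid miRNA, was at -4.16, -4.80, -6.39 and -6.08 at E15.5 and -5.07, -4.56, -4.06 and -5.18 at E16.5. It is made without Dicer, and it was lowest in replicates 3 and 4 at E15.5, as the sample medians were. What set those replicates apart was not tested. The difference of miR-451 was 0.64 (95% interval -0.34 to 1.62), or -0.24 without them. The erythroid miR-486 had 0.29. The endothelial miR-126, from an intron of Egfl7, was at 1.69, 1.63, 0.41 and 0.14 at E15.5 and 1.38, 1.65, 2.42 and 1.83 at E16.5. Replicates 3 and 4 at E15.5 were low here too, with a difference of 0.85 (95% interval -0.17 to 1.86) against -0.0038 in WT, and 0.15 without them. The other arm, miR-126#, went the other way between genotypes, with 0.36 in KO (-0.37 without those replicates) against 3.23 in WT. In WT replicate 4 at E15.5 the summed level of both arms was -9.12, where the rest of that group stood at -0.68 to 0.24. Of the 15 neural and chromaffin cell miRNAs 11 were above 0, with a median of 0.20. miR-375, of neuroendocrine cells, had 0.56 (95% interval -0.16 to 1.29), and the fly assay of miR-7 had 0.63, which was -0.29 without replicates 3 and 4 at E15.5. The 18 mesenchyme and muscle members had a median of 0.034, with 0.99 for miR-199a and 0.58 for miR-143. Without replicates 3 and 4 at E15.5 the medians were -0.079 for the erythroid, -0.11 for the endothelial, -0.54 for the neural and -0.62 for the mesenchyme and muscle list. Summed over each list, the levels of the KO samples ran at E15.5 from -44.7 to -33.1 for white blood cells (7 assays) and at E16.5 from -35.6 to -30.2. For the 15 neural and chromaffin assays the ranges were -92.4 to -65.8 and -80.3 to -72.3, and for the 18 mesenchyme and muscle assays -93.4 to -65.0 and -91.4 to -69.0. For the 2 erythroid assays they were -10.4 to -7.6 and -8.7 to -7.4, and for the 2 endothelial assays -2.6 to 0.6 and -0.3 to 1.3. Every assay of these 5 lists except miR-1 and its rat assay was detected in at least 3 samples of each age, while miR-144, miR-153, miR-183 and miR-219 had no assay among those tested. The part of these cells in the other results was not tested.

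Most members were detected in as many samples at both ages, and where detection differed it was more often higher at E16.5. Of the 312 members, 249 were detected in as many samples at both ages, 48 in more at E16.5 and 15 in fewer. The 249 include the 239 members detected in all 8 samples. Of the KO samples, replicate 4 at E15.5 had the fewest miRNA assays detected, 267. At the edge of the rule, 23 members reached 3 samples at best, and 42 further assays reached only 2 and were left out. Besides miR-141#, the members miR-1954 and miR-425 were detected in 0 samples at E15.5 and in 3 at E16.5. Both stayed next to the limit, at -11.3 to -10.5 for all E16.5 samples, so the step is small in level. miR-129-3p, detected in 1 sample and then in 4, had a difference of 0.48, and miR-296-3p, detected in 2 and then in 4, had 1.71 (95% interval -0.41 to 3.82). Without replicates 3 and 4 at E15.5 these were -0.31 and -0.13. In the other direction miR-592 was detected in 4 samples and then in 1, and miR-598 in 4 and then in 2, with differences of -0.79 and -0.65.

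Over the same day the control glands had a larger difference, but the test of the difference between genotypes called none. That test did not pair KO and WT pools of the same litter. In WT 0% of tested assays passed (limma, adjusted p under 0.05, smallest 0.17), and at an unadjusted p under 0.05 19.1% were higher and 0% lower, among them 58 members. In 42 members every WT E16.5 sample lay above every E15.5 sample (12.9% of tested assays), and in 0% did every one lie below. The median change of the 312 members was 0.62 in WT and 0.28 in KO. Subtracting the WT from the KO change gave a median of -0.33, with 235 of 312 below 0, and 0% of tested assays passed the limma test of that difference (smallest adjusted p 0.986). At an unadjusted p under 0.05, 3.81% were lower, of which 6 were members, and 0% higher. The smallest p among members belonged to miR-292-3p (-2.34, SE 0.82), miR-337-3p of the Dlk1-Dio3 cluster (-1.49, SE 0.53), miR-29b (-2.11, SE 0.79) and miR-1 (-4.27, SE 1.69). All of these but miR-337-3p include undetected KO wells set to the limit, so their sizes depend on it. miR-1 was also detected in only 2 WT samples at E15.5. In WT at E16.5 it stood at -1.95 in replicate 2 and at -8.08 to -6.47 in the others. miR-337-3p was at -7.32, -6.83, -8.39 and -8.15 at E15.5 and -8.21, -8.12, -7.88 and -9.12 at E16.5 in KO, with all E16.5 samples below replicates 1 and 2 at E15.5, a difference of -0.66 against 0.83 in WT. Of the 312 members 223 were higher at E16.5 in both genotypes, 69 were lower in KO and higher in WT, 12 the reverse and 8 lower in both. Across these assays the 2 changes had a Pearson correlation of 0.26 and a Spearman correlation of 0.29. The assays share their control wells and samples within each genotype and are not independent, so these values are a description. All 19 members that were higher in KO at an unadjusted p under 0.05 were also above 0 in WT, as were 292 of all 312, and 9 of the 19 had an unadjusted p under 0.05 there, against 58 of the 312. Without KO replicates 3 and 4 at E15.5 the KO median was -0.30, with 76 of the 312 above 0 and 5 higher at an unadjusted p under 0.05. The counts of shared direction therefore rest on those samples, and neither they nor the correlations are given without them.

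**Figure D5:**
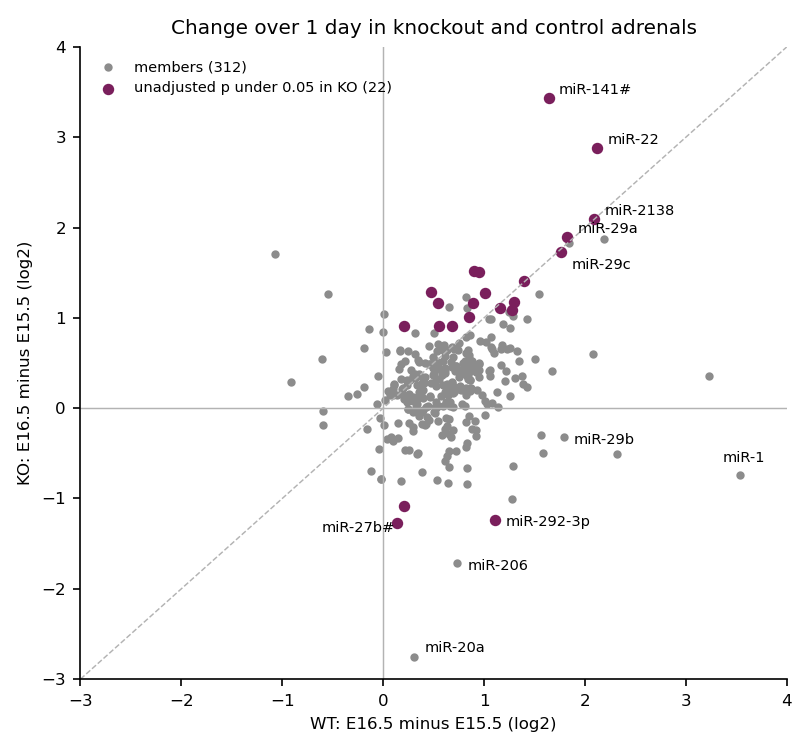
Difference between E16.5 and E15.5 (log2) in KO against that in WT for the 312 members, with the 22 members at an unadjusted p under 0.05 in KO in purple. The dashed line marks equal changes. Most points lie below the line, miR-29a, miR-29c and miR-2138 lie close to it, and miR-29b and miR-1 lie far to the right of it.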

How the data were processed

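Total RNA of 16 pools (4 per genotype and age) was reverse-transcribed with Megaplex primers and run on TaqMan OpenArray panels, per the labels' protocols. The Ct values of 846 wells per sample were analysed as deposited by the authors, in a table described as not normalized. For the software that called Ct the sources used here give no name. The levels were computed as stated in the report, and repeated wells of an assay were averaged. Samples were taken as 4 litters per group, without pairing KO with WT of the same litter, and the 2 no-template columns entered no group. The 341 assays detected in at least 3 samples of a group were fitted in limma 3.58.1 (R 4.3.3, all 16 samples, Benjamini-Hochberg over 341, threshold 0.05), and sample values were compared with exact permutation tests (scipy 1.17.1, 70 splits, smallest p 0.0286). The fit was tested on simulated data. Without read counts, precision is given by the spread of 4 samples. The 2 sets of sub-arrays were read from well positions.

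The members and lists were chosen with earlier results of these data known. Named were the 15 smallest p, members detected at 1 age only, up to 3 per list, the smallest p in the difference between genotypes, and miR-451, miR-98, miR-202, miR-34b-3p, miR-34c, miR-21, miR-10a and miR-690. Chosen after their values were seen were miR-146b and its rat assay, miR-142-3p, miR-155, miR-2134, miR-2135, miR-712, miR-365, miR-133a, miR-133b, rat miR-1, miR-129-3p, miR-592, miR-598 and miR-296-3p, and the other values of families (miR-27b, miR-429). Alternatives changed the reference, detection limit, filter, samples and fit. Mature sequences were matched through current arm names for 27 of 36 assays.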

Additional observations from a re-analysis of the deposited data

Results flagged for a closer look

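In 4 named members and 1 sample measure a KO sample at E16.5 stood far from the other 3 of its group (Dixon's test at 95%). miR-223 was at -1.16 in replicate 3, against -2.15 to -2.002 in the others, so the difference given for this miRNA includes 1 high sample. miR-132 was at -2.35 in the same replicate, against -2.82 to -2.75. miR-15a was at -6.46 in replicate 4, against -5.88 to -5.82. miR-30c was at -0.0040 in replicate 2, against 0.60 to 0.63. The control mean Ct was 16.3 in replicate 2, against 16.8 for each of the others. Chance gives about 1 such group in 20, and 5 of 141 groups were found. Groups with an undetected sample were not tested. One of these is miR-20a at E16.5, where replicate 4 was set to the limit, -11.23, and the others were at -0.36 to 0.40.

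The no-template controls gave a Ct in 22 and 21 miRNA wells, of which 4 and 6 were at 28 or less. Among the assays described, miR-141# had a Ct of 22.0 in the first and 22.7 in the second control, as low as in the samples that detected it. miR-2134 had 23.4 in the first (samples 10.2 to 13.8), miR-2138 had 25.7 in the second (samples 14.1 to 19.8) and miR-34b-3p had 27.6 in the second (samples 18.5 to 23.8), all later than in every sample. U6 had a Ct of 28 or less in 6 and 3 control wells, the lowest being 27.0 and 27.2.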

How the results depend on the processing

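The count of 0 assays called in KO was also 0 under all alternatives but 2. With the control wells of the assay's own set of sub-arrays 2 were called in KO and, by an alternative added after seeing the data, 3 in WT. Leaving out 1 sample in turn gave 0 to 1, the call being miR-141# without KO replicate 4 at E16.5 (4.68, limma adjusted p = 0.0216). The difference between genotypes gave 0 throughout. At an unadjusted p under 0.05 the 22 KO assays became 37 with the miRNA median as the reference, 48 without a reference, 13 with the KO samples alone, and 34, 48 and 13 without replicates 1, 2 and 4 at E15.5, and 14 without replicate 3 at E16.5. With the replicate block 0 were called and 19 had an unadjusted p under 0.05. The block joined all same-numbered samples, across the ages as well as KO with WT. It therefore does not test pairing by litter within an age. Same-numbered KO samples of the ages had correlations of -0.24 to 0.062.

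The sample median difference of 0.25 was 0.037 to 0.53 with 1 KO sample left out, -0.027 with the miRNA median as the reference (exact permutation p = 0.8) and -0.38 without KO replicates 3 and 4 at E15.5. The difference in assays detected was 4.25 to 27.4 with 1 KO sample left out and -1.25 without those 2 samples (exact permutation p = 1.0). Of 83 named members 48 kept their direction in every alternative and 28 of the other 35 reversed without those replicates. Those values were dme-miR-7 -0.29, miR-126# -0.37, miR-129-3p -0.31, miR-130a -0.16, miR-132 -0.094, miR-142-3p -0.40, miR-148a -0.66, miR-148b -0.40, miR-155 -0.69, miR-15a -0.37, miR-181c -0.50, miR-195 -0.26, miR-200b -0.16, miR-21 -0.29, miR-24 -0.18, miR-27a -0.28, miR-296-3p -0.13, miR-29c -0.023, miR-30c -0.039, miR-320 -0.058, miR-34b-3p -0.086, miR-451 -0.24, miR-467a -0.17, miR-467c -0.11, miR-503 -0.10, miR-93# -0.10, rno-miR-146b -0.35 and rno-miR-7a# -0.034. With the miRNA median as the reference the reversed values were miR-148a -0.061, miR-148b -0.053, miR-155 -0.16, miR-1954 -0.20, miR-425 -0.27, miR-467a -0.0059 and miR-467c -0.017. With a detection limit of 26 they were miR-129-3p -0.67, miR-148b -0.079 and miR-155 -0.46, without a reference miR-10a 0.38, miR-29b 0.063 and miR-34a 0.31, with U6 alone miR-425 -0.0099 and without U6 miR-10a 0.0013. With 1 sample left out, those that reversed were miR-10a (-0.14 to 0.16), miR-148a (-0.11 to 0.63), miR-148b (-0.097 to 0.52), miR-155 (-0.23 to 0.45), miR-181c (-0.12 to 0.75), miR-1954 (-0.093 to 0.30), miR-20a (-3.82 to 0.058), miR-34a (-0.36 to 0.077), miR-425 (-0.16 to 0.23) and rno-miR-1 (-1.24 to 0.23). The cause was not tested. Near the limit, a Ct of 28, small differences cannot be measured, and 4 samples per age leave intervals of about 2 units wide.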
